A study of Arabidopsis thaliana with 6 samples.

Results

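ZAT7 (AT3G46090) and ZAT10 (AT1G27730, listed as STZ in the RefSeq gene table) are stress-responsive genes of Arabidopsis thaliana, the thale cress, and were followed here across roots and rosette leaves with and without lead. Every probe set whose platform annotation names exactly 1 of these genes was taken. That gave 4 probe sets for 2 genes, out of 8247 probe sets without controls, of which 3784 name 1 of 3592 genes. ZAT7 is read by probe sets 15778_at and 15779_g_at, and ZAT10 by 18216_at and 18217_g_at. Both probe sets of a gene cite 1 sequence record, so they are not independent readings of it. All 4 passed the filter on low signals, the ZAT7 probe sets through the control leaf array alone, where they were highest.

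The study asked which genes take part in the uptake of lead, tolerance and defence. Plants of accession Col-4 grew hydroponically in a 10 h day at 22 °C, with nights at 18 °C, and were harvested at growth stage 6. The groups are control roots and control leaves, for which the labels give no lead treatment, and roots and leaves of plants given 25 ppm or 50 ppm lead as lead nitrate in a pair of additions to the nutrient solution. Each of the 6 groups has 1 array, so there is no replicate, and the number of plants behind an RNA sample is not given in the labels. In whole organs, fewer cells expressing a gene and less RNA per cell cannot be told apart.

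ZAT7 and ZAT10 encode transcription factors with a pair of C2H2 zinc fingers, in which cysteines and histidines hold a zinc ion, and with an EAR motif, a short stretch through which plant repressors recruit co-repressors. Transcripts of this family are known to respond fast to salt, cold, drought, wounding and reactive oxygen species. ZAT10 is a repressor of stress-inducible genes and a substrate of stress-activated MAP kinases, and plants with raised ZAT7 tolerate salt better. Lead is a non-essential metal known to provoke oxidative stress.

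The signals are linear intensities on a scale whose trimmed mean is near 100. Signals under 8, the 30th percentile of all signals, are treated as a floor and printed as under 8. A fold against such a value is a lower bound. Tested were the 5395 probe sets with a signal of 25.3, the overall median, or more on some array. Median signals ran from 22.3 on the control leaf array to 29.3 on the 50 ppm root array. Per the labels, mean scanner background reached 192.65 on the array of 50 ppm roots, while the other 5 arrays had from 69.03 to 97.80. Organ labels were set beside markers. Rubisco activase (RCA), a photosynthesis enzyme, measured from 3010 to 4197 in leaves and from 8.81 to 27.6 in roots. The peroxidase gene AT5G66390, taken as a root marker, measured from 140.5 to 446 in roots and from under 8 to 10.4 in leaves. LHB1B2, which encodes a light-harvesting chlorophyll-binding protein, measured from 2907 to 3070 in leaves and from 11.6 to 87.7 in roots on 12739_s_at, and from 259 to 285 and from 8.71 to 9.91 on 12738_r_at. Of the 10 leaf and 10 root markers listed, 2 and 1 have a named probe set here.

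In leaves, both genes were highest without lead. ZAT7 on 15779_g_at measured 78.7 without lead, 10.1 at 25 ppm and 10.7 at 50 ppm. On 15778_at it measured 39.6 in control leaves and lay under 8 at both doses. The control leaf array thus stood above both lead arrays, which were close to each other on each probe set. Against control, ZAT7 on 15779_g_at was lower by 7.77-fold at 25 ppm and by 7.38-fold at 50 ppm, and on 15778_at by at least 4.94-fold at either dose.

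ZAT10 showed the same order of control and lead in leaves with smaller differences. On 18216_at it measured 277 without lead, 136 at 25 ppm and 143 at 50 ppm. On 18217_g_at it measured 377, 249 and 210.2. The control array was again the highest on each probe set. ZAT10 was 2.04-fold and 1.94-fold lower at 25 and 50 ppm on 18216_at, and 1.52-fold and 1.79-fold lower on 18217_g_at. A change at least as low as that of 18216_at was seen in 2.84% of tested probe sets at 25 ppm and 4.08% at 50 ppm. For 18217_g_at these shares were 8.73% and 5.15%.

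**Figure D1:**
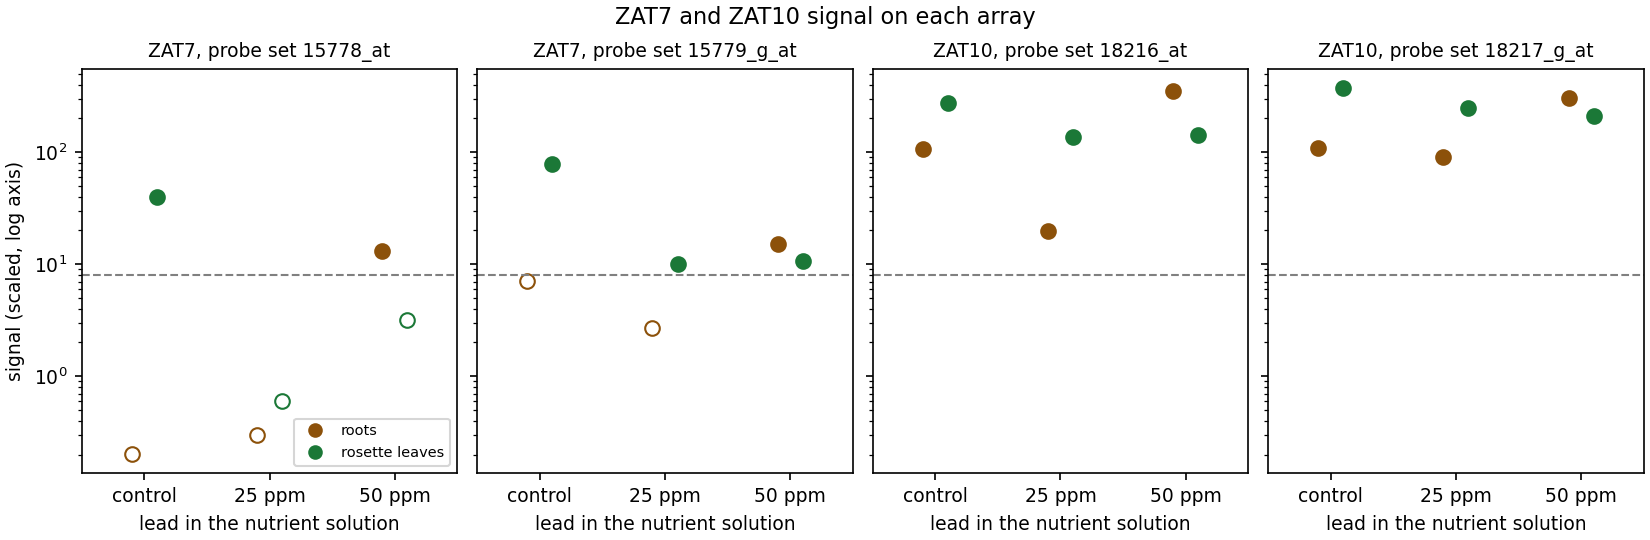
Scaled signal (log axis) on each of the 6 arrays for the 4 probe sets, with roots in brown and rosette leaves in green. The dashed line is the floor of 8 and open points lie under it. The control leaf point is the highest leaf point in every panel, and the 50 ppm root point is the highest root point.

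By a rule of size, at least 2-fold lower than control at both doses, 2 of the 4 probe sets were called in leaves, both of ZAT7. The same rule called 1.04% of all 5395 tested probe sets. Since ZAT7 entered the test through the control leaf array alone, the filter favoured a fall from that array, and its counts in comparisons with control leaf are a description that supports nothing. ZAT10 on 18216_at lay just outside it with 1.94-fold at 50 ppm. Lead was tested in limma with 25 and 50 ppm as 1 lead group, so that the spread comes from the differences between those arrays. ZAT7 had a log2 change of -2.92 on 15779_g_at (standard error 0.53, 95% interval -4.30 to -1.55) and of -2.31 on 15778_at (standard error 0.50). ZAT10 had -0.99 (standard error 1.67) on 18216_at and -0.72 (standard error 0.76) on 18217_g_at. In limma the adjusted p over all tested probe sets was 1 for each of the 4, and 0 of 5395 passed in leaves (0%). At an unadjusted p under 0.05, limma called 134 (2.48%), among them both ZAT7 probe sets, which the filter favoured, and neither of ZAT10. On 15778_at both lead-treated leaf values were set to the floor, so its own spread in this fit comes from the lead-treated root arrays. Its change moved with the floor, to -4.34 with the floor at the 10th percentile and to -0.64 at the 50th, where that of 15779_g_at was -2.92 and -1.64. The comparisons at 25 and 50 ppm share 1 control leaf array.

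In roots the 2 doses did not go the same way. ZAT10 on 18216_at measured 106 without lead, 19.8 at 25 ppm and 355 at 50 ppm. On 18217_g_at it measured 109, 90.8 and 306. The 50 ppm root array was the highest root array on both, and the 25 ppm array the lowest. At 50 ppm ZAT10 was 3.33-fold higher than control on 18216_at and 2.81-fold higher on 18217_g_at. Of all tested probe sets, 11% were at least 2-fold higher at that dose. The high background of the 50 ppm root array goes with this difference, and its part was not tested.

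At 25 ppm the probe sets of ZAT10 disagreed. On 18216_at the signal was 5.37-fold lower than in control roots, and on 18217_g_at it was 1.20-fold lower. Their log2 changes thus differed by 2.16. Such pairs, an _at and the next _g_at probe set naming 1 gene with both tested, numbered 36 on the array. Their median difference in log2 change at 25 ppm in roots was 0.13, and 0 pairs differed more than that of ZAT10. In the other comparisons with control the ZAT10 pair differed by 0.24 in roots at 50 ppm, 0.43 in leaves at 25 ppm and 0.11 in leaves at 50 ppm, against medians of 0.23, 0.29 and 0.16. The low value of 19.8 therefore rests on 1 probe set of 1 array. Between the doses, ZAT10 was 17.9-fold higher at 50 than at 25 ppm on 18216_at and 3.37-fold higher on 18217_g_at.

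ZAT7 was near the floor in roots. On 15779_g_at and on 15778_at it lay under 8 in control roots and at 25 ppm. At 50 ppm it measured 15.2 and 13.0, so that it was at least 1.90-fold and at least 1.62-fold higher than in control roots. These signals are below the median of all signals on the arrays. The 50 ppm array was the one root array with a ZAT7 signal over the floor. It was also the array with the high background (192.65), whose part in these low signals was not tested.

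**Figure D2:**
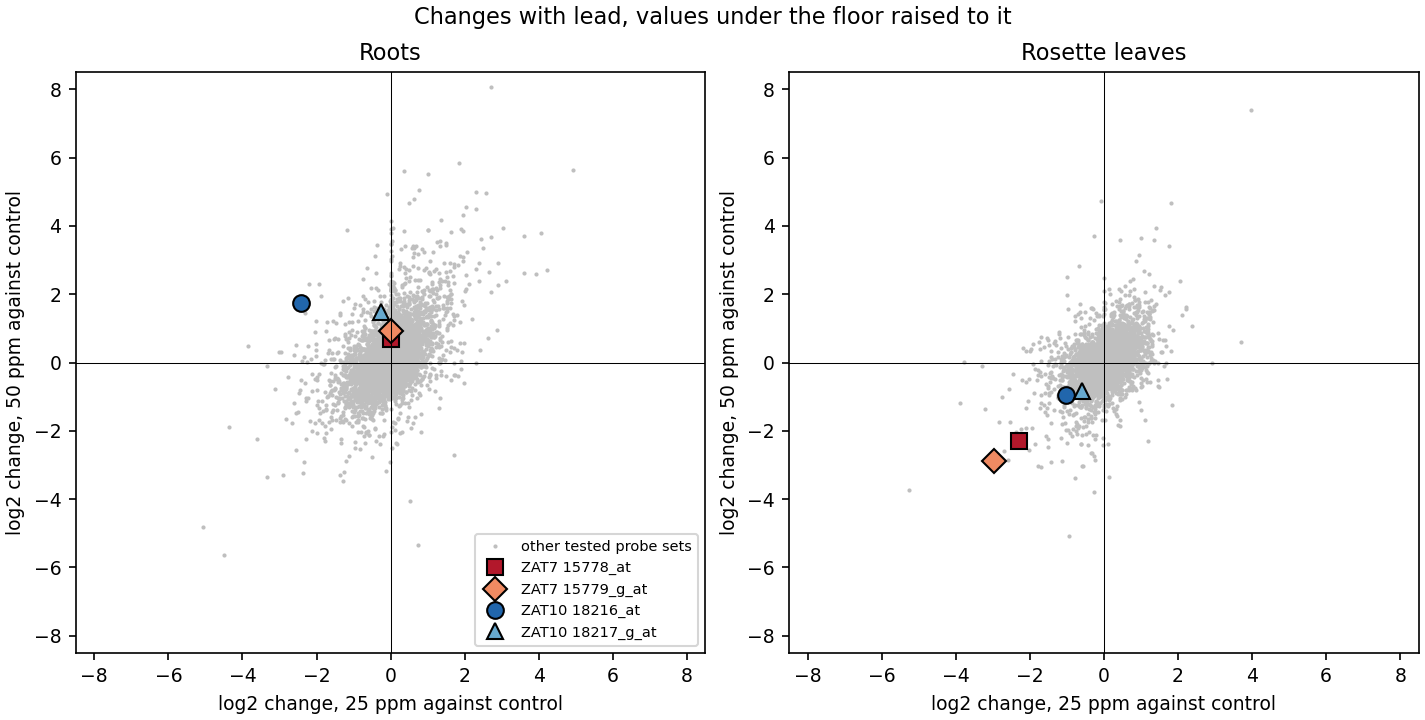
Log2 change at 25 ppm (horizontal) and at 50 ppm (vertical) against the control array of the same organ, for 5395 tested probe sets in grey and the 4 of ZAT7 and ZAT10 in colour. In leaves all 4 lie below 0 on both axes. In roots ZAT10 on 18216_at lies at -2.43 and 1.74, and the ZAT7 probe sets lie at 0 and above 0. The changes of an organ share its control array.

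In roots 0 of the 4 probe sets differed 2-fold from control in the same direction at both doses, where 4.71% of all tested probe sets did. At least 2-fold higher at 50 than at 25 ppm were 2 of the 4, both of ZAT10, against 10.4% of all tested. In limma with both doses together, the log2 change of ZAT10 was -0.35 (standard error 1.67) on 18216_at and 0.62 (standard error 0.76) on 18217_g_at. Its interval on 18216_at ran from -4.70 to 4.01, since the opposite values at 25 and 50 ppm count as error. ZAT7 had 0.46 (standard error 0.53) and 0.35 (standard error 0.50). The adjusted p was 1 for each in limma, and 0 of 5395 passed (0%), with 332 at an unadjusted p under 0.05 (6.15%) and 0 of the 4 among them. Without the 25 ppm root array, limma gave ZAT7 on 15778_at an adjusted p of 0.0323 in roots. That p rests on the floor. The spread in that fit comes from the lead-treated leaf arrays, both set to the floor on this probe set, so its standard error was 0.014 against 0.50 with all arrays. Its control root value is also under the floor, so the log2 change of 0.72 depends on where the floor is set.

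Whether the change with lead differed between the organs was tested as a contrast of the same fit. For ZAT7 the root change was above the leaf change by 3.38 on the log2 scale on 15779_g_at (standard error 0.75) and by 2.65 on 15778_at (standard error 0.70). For ZAT10 it was above it by 1.34 (standard error 1.07) on 18217_g_at and by 0.64 (standard error 2.36) on 18216_at. In limma the adjusted p was 0.998 for both ZAT7 probe sets and for 18217_g_at and 0.999 for 18216_at. Over all tested probe sets 0 passed (0%), with 202 at an unadjusted p under 0.05 (3.74%), among them both of ZAT7. This contrast holds the control leaf array, through which alone ZAT7 entered the test, so the filter favoured a difference here. The counts and p-values of ZAT7 in this contrast are thus a description that supports nothing. With the floor at the 10th or 50th percentile the ZAT7 difference was 6.06 or 0.64 on 15778_at and 2.77 or 1.64 on 15779_g_at. Without the 25 ppm root array, limma gave adjusted p of 0.0195 on 15778_at and 0.0450 on 15779_g_at, with differences of 3.04 and 3.86. The spread in that fit is the one between the lead-treated leaf arrays, which are tied at the floor on 15778_at (standard error 0.018) and close to each other on 15779_g_at (standard error 0.082). Without the 50 ppm root array, where the spread comes from the same leaf arrays, neither passed (adjusted p = 0.0968 and 0.190 in limma).

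Leaf against root depended on the dose. Without lead, ZAT10 was 2.60-fold higher in leaf than root on 18216_at and 3.46-fold on 18217_g_at, and ZAT7 at least 4.94-fold and at least 9.84-fold. At 25 ppm ZAT10 was still higher in leaf, by 6.85-fold and 2.74-fold, while ZAT7 was at least 1.27-fold higher on 15779_g_at and under 8 in both organs on 15778_at. At 50 ppm all 4 probe sets were lower in leaf than in root. ZAT10 was then 2.48-fold and 1.46-fold lower, and ZAT7 1.42-fold lower on 15779_g_at and at least 1.62-fold lower on 15778_at. Of all tested probe sets, 21.6% were at least 2-fold higher in leaf without lead and 27.3% at least 2-fold lower in leaf at 50 ppm. At 50 ppm a difference at least as low was seen in 22.3% and 38.7% of them for ZAT10. For ZAT7 on 15779_g_at and 15778_at these shares were 39.8% and 34.5%. A leaf signal at least 1.12-fold lower was seen in 52.6%, so this direction was common. Without lead, the filter had fixed ZAT7 as higher in leaf.

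**Figure D3:**
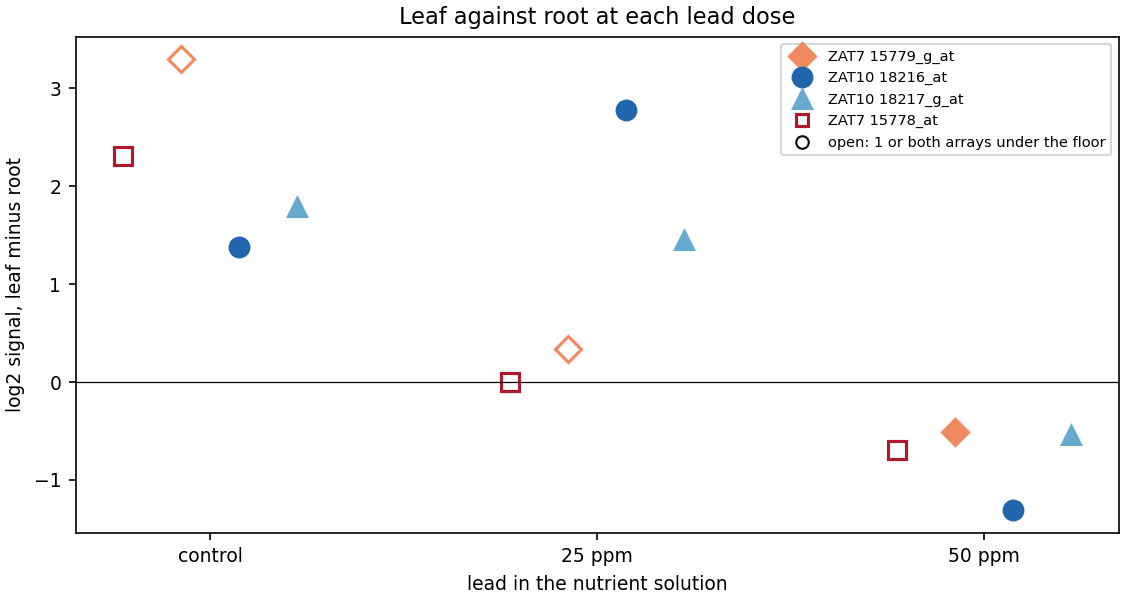
Log2 signal of leaf minus root at each lead dose for the 4 probe sets, 1 array per organ and dose. Open symbols have 1 or both arrays under the floor. All 4 lie above 0 without lead, at 1.38 to 3.30, and below 0 at 50 ppm. At 50 ppm 52.6% of all tested probe sets were at -0.168 or lower.

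Over the 3 doses, with dose as a further term in limma, root minus leaf was -0.95 (standard error 0.74) for ZAT10 on 18216_at and -0.90 (standard error 0.48) on 18217_g_at. It was -1.04 (standard error 0.75) and -0.54 (standard error 0.64) for ZAT7. The adjusted p in limma ranged from 0.161 to 0.507, and 0 of the 4 passed, where 52.7% of all tested probe sets did. At an unadjusted p under 0.05 limma also called 0 of the 4, against 59.9% of all tested. Leaving out a 50 ppm array changed this for ZAT10. The share of all tested probe sets that passed in such a refit was not counted. With all arrays it was 52.7%, so a pass is common in this contrast. Without the 50 ppm root array root minus leaf was -2.08 on 18216_at and -1.62 on 18217_g_at (adjusted p = 0.00420 and 0.00312 in limma). Without the 50 ppm leaf array, whose partner then carries no weight in the difference, the values were the same and the adjusted p in limma was 0.0125 and 0.00697.

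Ordered over the 6 arrays, ZAT7 was highest in control leaf and next highest in 50 ppm root on both probe sets, with lead-treated leaves and the other roots near or under the floor. For ZAT10, 50 ppm root came first and control leaf second on 18216_at, with the places exchanged on 18217_g_at. The leaf arrays at 25 and 50 ppm also exchanged places between its probe sets. Control root and then 25 ppm root were the lowest on both. With 1 array per group, no spread over samples says which neighbours in these orders differ. The control leaf array was the highest among leaves and the 50 ppm array the highest among roots for 4 of the 4 probe sets. The same held for 436 of the 5395 tested (8.08%). The order was looked for after the values were seen. For both ZAT7 probe sets the filter had fixed the control leaf array as the highest among leaves, since they passed through it alone. The count of 4 is therefore a description that supports nothing.

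The 6-array patterns of the probe sets had a Pearson correlation of 0.99 within ZAT7 and of 0.87 within ZAT10. Between ZAT7 and ZAT10 it ran from 0.54 to 0.74, and from 0.60 to 0.90 over the 5 arrays without control leaf. These values share the arrays and their scaling, and several ZAT7 values are tied at the floor.

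Genes with the most similar pattern were ranked by their mean correlation of log2 signal with both probe sets of a gene over the 6 arrays, among 842 single-gene probe sets with at least a 4-fold range. Nearest to ZAT7 was AT2G42360 (mean correlation 0.93), which measured 63.1 in leaves without lead, 14.6 at 25 ppm and 16.8 at 50 ppm. In roots it measured under 8, 12.0 and 28.9 in dose order. Next came AT4G39830 (0.89), the pectin methylesterase gene ATPMEPCRB (0.86), the chaperone gene Hsp70-2 on 16916_s_at (0.85) and WRKY53 (0.84), a transcription factor of senescence and defence. Without the control leaf array the correlation of WRKY53 with ZAT7 was -0.087, and those of the other 4 ran from 0.56 to 0.88.

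Nearest to ZAT10 were AT2G18970 (mean correlation 0.92), AT1G65500 (0.92), AT5G25930 (0.91), AT1G62422 (0.90) and AT4G34150 (0.87). AT1G65500 measured 193 in leaves without lead, 138 at 25 ppm and 119 at 50 ppm, and 56.7, 40.9 and 133 in roots. AT5G25930 measured 77.0, 45.9 and 23.1 in leaves and 16.2, 9.71 and 45.0 in roots. Like ZAT10, both were lowest in 25 ppm roots. Without the control leaf array these 5 correlations ran from 0.89 to 0.95. Of the 10 probe sets named here, 10 were highest in control leaf among leaves and 9 at 50 ppm among roots, the exception being WRKY53. The ranking selects for such shapes.

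**Figure D4:**
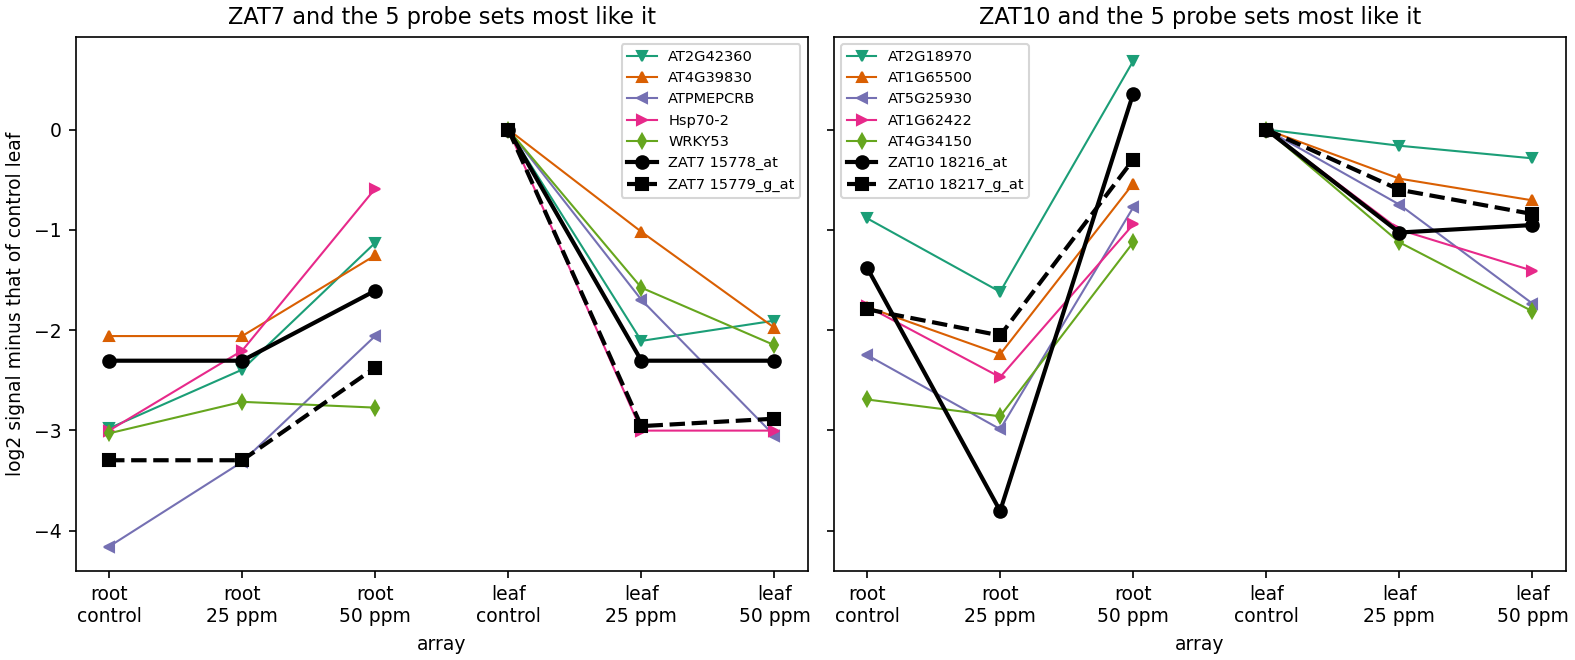
Log2 signal relative to the control leaf array, with values under the floor raised to it, for ZAT7 (left) and ZAT10 (right) in black and the 5 probe sets most like each in colour. Lines join arrays of 1 organ. ZAT10 on 18216_at drops further at 25 ppm in roots than its other probe set and all 5 probe sets beside it.

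Other genes of these pathways were sparsely named on the array. Of 16 C2H2 genes of the family listed, 4 have a named probe set and 3 were tested. ZAT5 (AT2G28200) measured 60.7, 54.9 and 33.8 in roots in dose order and 11.9, 16.8 and 18.2 in leaves. It was thus higher in roots at every dose, with a log2 difference of 1.65 (standard error 0.35, adjusted p = 0.0105 in limma, but 0.0864 without the filter and 0.0620 without the control root array), and lower without lead than with lead in leaves, opposite to ZAT7 and ZAT10. That difference with lead did not pass (log2 change 0.56, adjusted p = 1 in limma). Root against leaf passed for 52.7% of all tested probe sets. ZAT4 (AT2G45120) was not tested, as its highest signal was 9.07.

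Of 24 other stress regulators listed, WRKY53 and WRKY6, also a WRKY factor of senescence and defence, were tested. WRKY53 measured 175, 58.6 and 39.4 in leaves and 21.4, 26.6 and 25.6 in roots. WRKY6 measured 110.4, 93.1 and 35.6 in leaves and 101, 155 and 194 in roots. Both were highest in control leaves among leaves, as ZAT7 and ZAT10 were. In limma 0 of these 2 passed for lead in either organ, with 1, WRKY53 in leaves, at an unadjusted p under 0.05. In leaves 2.48% of all tested probe sets lay under it. By the rule of size, which called 1.04% of all tested probe sets as lower in leaves, WRKY53 was lower there at both doses. WRKY6 was not called. WRKY53 was higher in leaves than in roots (root minus leaf -1.60, standard error 0.49, adjusted p = 0.0369 in limma). With all arrays 52.7% of all tested probe sets passed this contrast. The call of WRKY53 was lost in 6 alternatives. Among them were no filter (-1.60, adjusted p = 0.197 in limma) and the floor at the 50th percentile (-1.52, adjusted p = 0.0523 in limma). The others left out 1 array. Without the control root or the control leaf array the difference was -0.88 (adjusted p = 0.0854 and 0.104 in limma), and without the 25 ppm root or leaf array it was -1.83 (adjusted p = 0.0578 and 0.0596 in limma). Of 7 MAP kinase pathway genes, 11 touch and wound genes and 9 enzymes of reactive oxygen metabolism listed, 0 have a named probe set here. Of 7 heat shock genes listed, 1, the chaperone gene Hsp70-2, has named probe sets. On 16465_at it measured 321, 8.43 and 24.1 in leaves and 41.7, 88.4 and 116 in roots. On 16916_s_at it measured 64.1 in control leaves and under 8 at both doses, and 8.00, 13.9 and 42.7 in roots. By the rule of size both were lower with lead in leaves, and 16465_at was higher with lead in roots. The rule called 1.04% of all tested probe sets as lower in leaves. In roots it called 4.71% in either direction. Neither passed for lead in limma in leaves (adjusted p = 1) or in roots (adjusted p = 0.873 and 0.824).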

How the data were processed

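Biotin-labelled cRNA from 6 samples was hybridised to 1-colour Affymetrix arrays with 8297 probe sets, per the labels. The deposited values are linear signal intensities, 1 per probe set and array; the software behind them is not stated in the labels. Their 2% trimmed means lay from 100.1 to 100.2. The 50 control probe sets were set aside, the others scaled to a common trimmed mean, raised to the 30th percentile (8) and put on the log2 scale. Probe sets were named from the platform annotation through RefSeq gene identifiers (TAIR10.1). limma 3.58.1 in R 4.3.3 (trend, two-sided, Benjamini-Hochberg, threshold 0.05) was fitted on all 5395 tested probe sets, with 2 residual degrees of freedom for lead. The number of arrays limits the precision, and p-values measure the spread between these arrays. The fits were tested on simulated data with random noise and no values tied at a floor, so such ties were not covered. All probe sets of both genes, the 5 most alike probe sets of each, the measured members of the C2H2, stress regulator, MAP kinase and touch and wound lists, and members of the other lists that a result turned on, were named. Members and lists were chosen with earlier results of these data known. Alternatives were other scalings, floors, filters, fits and folds, and leaving out each array. Without the control leaf array ZAT7 failed the filter and was not fitted.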

Additional observations from a re-analysis of the deposited data

Results flagged for a closer look

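Roots and leaves went opposite ways at 50 ppm against control on all 4 probe sets, roots higher and leaves lower. The share of all tested probe sets that did so was not counted. For ZAT7 the filter had fixed the fall in leaves, so the count of 4 is a description that supports nothing. The 50 ppm root array had the high background of 192.65, whose part was not tested. The root change minus the leaf change, on the log2 scale, was 3.00 for ZAT7 on 15778_at, 3.81 on 15779_g_at, 2.69 for ZAT10 on 18216_at and 2.33 on 18217_g_at. From 25 to 50 ppm ZAT10 on 18217_g_at was higher in roots and lower in leaves, with a difference of 2.00. Each rests on 1 array per group, and these single-dose differences were not tested. In roots the ZAT7 values are bounds from the floor.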

How the results depend on the processing

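The 16 tested values of ZAT7 and ZAT10 kept direction and side of the threshold in 194 of 212 alternatives. With all arrays the exceptions were lead in roots for ZAT7, at 0 on both probe sets with the floor at the 50th percentile and at -0.15 on 15779_g_at with the floor at the 10th, and for ZAT10 on 18216_at, 1.74 with dose as a linear term. All other exceptions came from leaving out 1 array. Lead in roots then ranged from 0 to 0.72 for ZAT7 on 15778_at and to 0.94 on 15779_g_at, from -2.43 to 1.74 for ZAT10 on 18216_at and from -0.26 to 1.49 on 18217_g_at, the low ends without the 50 ppm root array and the high ends without the 25 ppm one. The root change minus the leaf change ranged from 2.38 to 3.04 for ZAT7 on 15778_at, from 2.92 to 3.86 on 15779_g_at and from -1.44 to 2.73 for ZAT10 on 18216_at, with the same arrays at the ends. Root minus leaf ranged from -1.19 to 0.34 and from -1.90 to 0.091 for ZAT7, above 0 without the control root array. For ZAT10 it ranged from -2.08 to -0.034 and from -1.62 to -0.46. The ranges of ZAT7 hold no fit without the control leaf array, since ZAT7 then failed the filter. Under alternatives, all 84 changes with lead in leaves, over the 4 probe sets and both doses, were below 0. For ZAT7 the filter had fixed this sign. Other filters and leaving out root arrays hardly moved the changes, so many repeat. All must keep the 1 control leaf array, so they cannot show whether the fall rests on it. The size of the change for ZAT7 moved with the floor. With both doses together it was -4.34 on 15778_at with the floor at the 10th percentile. With the floor at the 50th it was -0.64 there and -1.64 on 15779_g_at. The root change minus the leaf change of ZAT7 was 6.06 and 0.64 on 15778_at and 2.77 and 1.64 on 15779_g_at with these floors. By the rule of size in leaves, 2 probe sets were lower with lead. A floor at the 50th percentile gave 1, a mean signal of at least 100, which leaves out ZAT7, gave 0, and a 1.5-fold rule gave 4. Taking either lead array as the reference gave 0. In roots the count of 0 became 1 with the 25 ppm array as the reference, 2 with the 50 ppm array, and from 0 to 2 with 1 array left out. The count of 2 higher at 50 than at 25 ppm in roots was 4 by a 1.5-fold rule, with a floor at the 10th percentile or with an offset added to every signal. The cause of these shifts was not tested. No paired analysis was possible because the labels give no replicate numbers, with 1 array per group; dose was a term in the fit of root against leaf. The alternatives for WRKY53, WRKY6, ZAT5 and the most alike genes were chosen after seeing the data; WRKY53 against organ lost its call in 6 of them, the smallest difference being -0.88 without a control array, and ZAT5 in 2. ZAT7 in lead-treated leaves and in roots lay close to or under the floor. This limits its folds against control to bounds on 15778_at in leaves and on both probe sets in roots. On 15779_g_at in leaves the folds were measured, from lead-treated signals just over the floor.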

Other observations

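The clock gene GIGANTEA (GI), whose transcript is known to follow the time of day, was measured with 3 tested probe sets. On 17580_at it measured 240, 244 and 332 in leaves in dose order and 469, 351 and 429 in roots. On 17581_g_at it measured 67.5, 73.6 and 83.6 in leaves and 134.8, 79.1 and 133.8 in roots. On 14298_g_at it measured 19.8, 18.0 and 31.4 in leaves and 38.7, 25.8 and 50.8 in roots. Of the 20 probe sets most alike to ZAT7 and the 20 most alike to ZAT10, 9 (45% of each) were on both lists, which rest on the same 6 arrays. Among them were AT1G24140 and UGT87A2, a glycosyltransferase gene.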
